A study of Mus musculus with 9 samples.

Results

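Hox genes encode transcription factors that bind DNA through a homeodomain, and in the embryo they give the cells of each level of the trunk and each segment of a limb a positional identity. They lie in 4 clusters, Hoxa to Hoxd, in which the lower numbers are anterior genes and the higher numbers posterior ones, and connective and skeletal cells of the adult keep much of the Hox pattern of the place where they formed. The RNA sequencing table used here holds 8 protein-coding genes named *Hoxa*, *Hoxb*, *Hoxc* or *Hoxd* with a number, out of 3477 protein-coding genes and 8329 genes in all. These 8 were taken by name, whatever their level, and the other genes of the 39 in the mouse annotation were not analysed here.

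The libraries came from cells sorted from the bones of adult wild-type (WT) C57BL/6J mice, with 3 libraries in each of 3 groups. Mesenchymal stem cells of the marrow (BM-MSCs) and skeletal stem cells of the periosteum, the membrane on the outer face of bone (P-SSCs), were taken at steady state on day 0. Graft P-SSCs were taken from the periosteum of a femur 3 days after it had been moved under the skin of the back of another mouse. By the study's methods the cells were sorted as CD45-Ter119-CD31-CD51+CD200+, a gate set against blood and endothelial cells, although the BM-MSC libraries held blood transcripts (values with the marker lists). In both steady-state groups, replicate 2 carries a label that joins 2 numbers. The study's methods say that RNA of 2 mice was combined where applicable, without naming the libraries. The labels give 1 genotype and 1 strain for all 9 libraries, so cells of the grafted bone and of the recipient cannot be told apart here. In bulk RNA, fewer cells that express a gene and less RNA per cell cannot be told apart either. Values are FPKM, a measure that corrects the number of fragments on a gene for gene length and sequencing depth, and the libraries held between 16890241 and 21315438 fragments.

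The 8 genes come from all 4 clusters. *Hoxa3* (GRCm38 chromosome 6, 52169062 to 52213336) and *Hoxa10* (chromosome 6, 52231197 to 52240854) lie on the minus strand, and the others on the plus strand. *Hoxb13* is on chromosome 11 (96194316 to 96197447). *Hoxc13* (102921103 to 102928814), *Hoxc12* (102936757 to 102938609) and *Hoxc6* (102998257 to 103011881) are on chromosome 15, and *Hoxd3* (74711927 to 74748442) and *Hoxd1* (74762980 to 74765142) on chromosome 2. In the posterior group, *Hoxa10* is known for patterning the thigh segment of the hindlimb and the lumbar spine, and *Hoxb13*, *Hoxc12* and *Hoxc13* for the tail end of the body and, in the case of *Hoxc13*, for hair and nail. In the anterior and middle group, *Hoxa3*, *Hoxd3* and *Hoxd1* act in the head, neck and nervous system, and *Hoxc6* marks the level of the thorax and forelimb.

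The homeobox is the stretch of 180 bases that encodes the homeodomain, a part in which Hox transcripts are much alike. It was compared among the 8 members only, so it does not show how well their fragments can be told from those of other Hox genes. It was read from the GENCODE M21 transcripts (GRCm38) of the 2 members that were tested and is written 5′ to 3′ on the coding strand, with the 18 bases for the core of the DNA-contacting helix in capitals.
Hoxa10: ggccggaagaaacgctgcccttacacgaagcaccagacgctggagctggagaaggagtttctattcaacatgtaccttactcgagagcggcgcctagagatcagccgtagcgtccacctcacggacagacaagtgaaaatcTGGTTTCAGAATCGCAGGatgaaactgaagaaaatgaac
Hoxc6: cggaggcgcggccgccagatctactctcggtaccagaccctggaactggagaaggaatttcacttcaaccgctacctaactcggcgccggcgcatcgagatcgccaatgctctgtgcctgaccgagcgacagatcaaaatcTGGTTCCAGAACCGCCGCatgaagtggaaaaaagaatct
That of *Hoxa10* is in exon 2 of 2 (chr6:52232554-52232733) and that of *Hoxc6* in exon 2 of 2 (chr15:103010754-103010933). The capitals of the 2 genes differ. Over the whole homeobox, *Hoxa10* and *Hoxc6* were identical at 113 of 180 bases (62.8%). Among all 28 pairs of the 8 members the range was 50.6 to 93.3%, with *Hoxa3* and *Hoxd3* at the top. The longest run of identical bases between the transcripts of any pair was 32, and between *Hoxa10* and *Hoxc6* it was 12.

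Most of the Hox RNA measured came from *Hoxa10* and *Hoxc6*. *Hoxa10* was lower in the grafts than in both steady-state groups, and for *Hoxc6* no difference passed the test. Genes were tested if 3 or more of the 9 libraries reached 1 FPKM, which 51.5% of the protein-coding genes did, and of the 8 members *Hoxa10* and *Hoxc6* alone passed (2 of 8). *Hoxa3* had values below 1 FPKM in every library in which it was seen, and *Hoxb13*, *Hoxc12*, *Hoxc13*, *Hoxd1* and *Hoxd3* were at 0 in all 6 steady-state libraries. None of the 8 was at 0 in all 9 libraries, where 26.9% of the protein-coding genes were. Because the table gives whole fragments for each of these genes, counts are printed beside the FPKM, and the intervals and limits drawn from them cover counting error only.

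**Figure D1:**
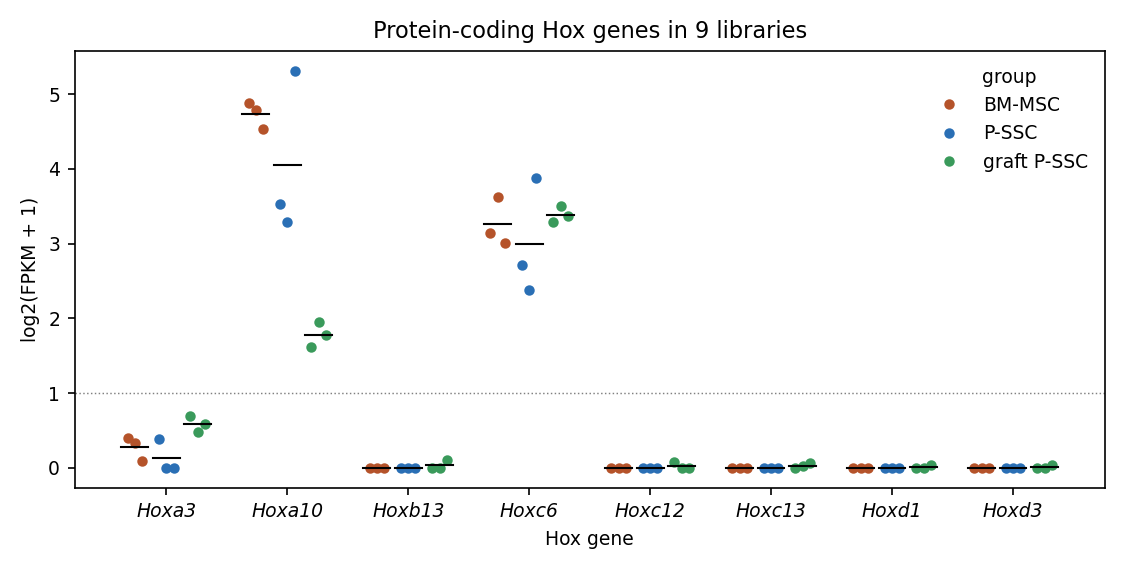
Level of the 8 protein-coding Hox genes, as log2(FPKM + 1), in BM-MSCs, P-SSCs and graft P-SSCs. Points are libraries, black bars are means of 3 libraries, and the dotted line is an FPKM of 1. *Hoxa10* and *Hoxc6* lie above the line in all 9 libraries and the other 6 genes below it, and the graft points of *Hoxa10* lie apart from the rest.

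*Hoxa10* was high in BM-MSCs, variable in P-SSCs and low in grafts. The BM-MSC libraries had 28.5, 26.5 and 22.1 FPKM (813, 842 and 682 fragments), with a mean of 25.7 ± 3.26 FPKM (SD, n = 3). The P-SSC libraries had 10.6, 8.80 and 38.8 FPKM (353, 264 and 1244 fragments), with a mean of 19.4 ± 16.8 FPKM (SD, n = 3). The graft libraries had 2.08, 2.86 and 2.44 FPKM (62, 103 and 74 fragments), with a mean of 2.46 ± 0.393 FPKM (SD, n = 3). All 3 graft libraries lay below all 6 steady-state libraries, whereas P-SSC replicate 3 was the highest of the 9 and the other P-SSC libraries lay between the BM-MSCs and the grafts.

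The mean of *Hoxa10* was 7.88-fold lower in graft P-SSCs than in P-SSCs and 10.5-fold lower than in BM-MSCs. Without P-SSC replicate 3 the P-SSC mean was 9.69 FPKM and the grafts were 3.94-fold lower. The nearest libraries of the grafts and the P-SSCs were 3.08-fold apart. On the log2(FPKM + 1) scale, which understates the change of low genes, the fold change of graft P-SSCs against P-SSCs was -2.26 ± 0.47 (SE), with an adjusted p of 0.00513 (limma across 1948 genes, Benjamini-Hochberg). Against BM-MSCs it was -2.95 ± 0.47 (SE, limma adjusted p = 0.000983). *Hoxa10* was thus 1 of the 2 members tested that fell in the grafts in each comparison, where 11.5% of all genes tested were lower than in P-SSCs and 16.2% lower than in BM-MSCs (34.1% and 41.9% changed in either direction). The libraries lay apart, with the grafts lower, for 19% and 24% of all genes tested.

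Between the steady-state groups *Hoxa10* was not called. The difference of P-SSCs from BM-MSCs was -0.69 ± 0.47 (SE) on the log2 scale, with a 95% interval from -1.74 to 0.37 (limma adjusted p = 0.352), and the libraries overlapped. Of the 2 members tested 0 passed the threshold in this comparison, in which 24.2% of the genes tested did, none had an unadjusted p under 0.05 (0.179 for *Hoxa10* and 0.512 for *Hoxc6*), and limma voom on the fragment counts also called 0. This result rested on P-SSC replicate 3. Without it *Hoxa10* fell by 1.32 on the log2 scale from BM-MSCs to P-SSCs (limma adjusted p = 0.00351), and the log2 fold change from P-SSCs to grafts was -1.63 (limma adjusted p = 0.000553).

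*Hoxc6* overlapped between all groups. The BM-MSC libraries had 7.84, 11.3 and 7.03 FPKM (133, 214 and 129 fragments), with a mean of 8.73 ± 2.28 FPKM (SD, n = 3). The P-SSC libraries had 5.59, 4.20 and 13.7 FPKM (111, 75 and 261 fragments), with a mean of 7.82 ± 5.11 FPKM (SD, n = 3). The graft libraries had 8.78, 10.3 and 9.31 FPKM (156, 221 and 168 fragments), with a mean of 9.47 ± 0.782 FPKM (SD, n = 3). The libraries of each pair of groups overlapped, and again P-SSC replicate 3 was the highest of the 9 and the other P-SSC libraries the lowest.

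No comparison of *Hoxc6* passed the threshold. The log2 difference of graft P-SSCs from P-SSCs was 0.39, with a 95% interval from -0.48 to 1.27 (limma adjusted p = 0.478), and that from BM-MSCs was 0.13, with an interval from -0.75 to 1.0 (limma adjusted p = 0.809). The difference of P-SSCs from BM-MSCs was -0.27, with an interval from -1.14 to 0.61 (limma adjusted p = 0.688). These intervals leave room for a change of a good part of 1 log2 unit in either direction. Without P-SSC replicate 3, *Hoxc6* was higher in grafts than in P-SSCs by 0.84 on the log2 scale (limma adjusted p = 0.0373). The sign for grafts against P-SSCs turned with quantile normalization (-0.15), and that for grafts against BM-MSCs with median-of-ratios scaling (-0.096) and quantile normalization (-0.24).

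**Figure D2:**
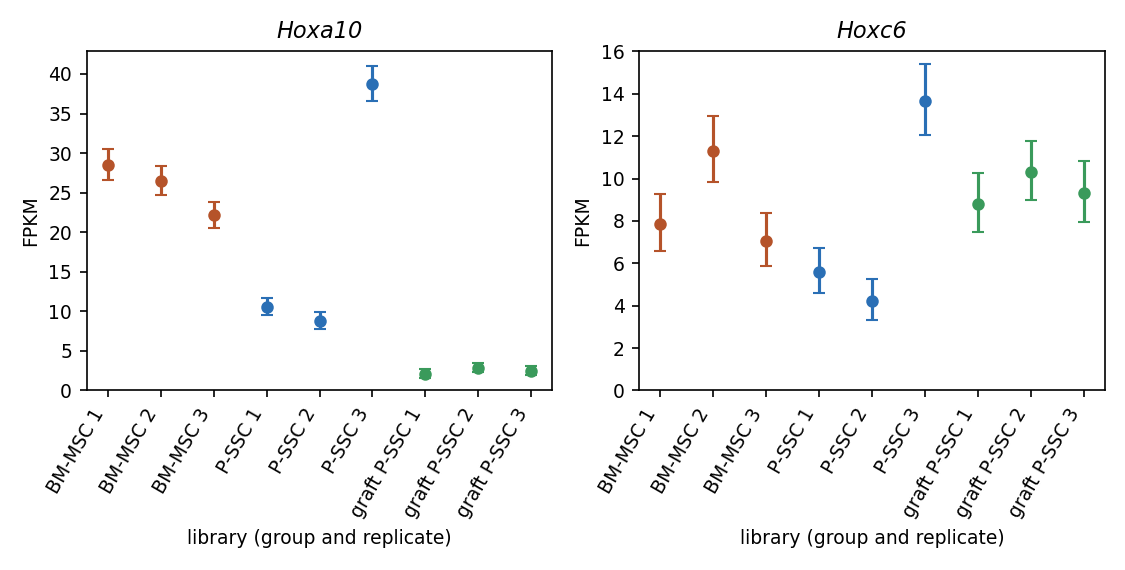
FPKM of *Hoxa10* (left) and *Hoxc6* (right) in each of the 9 libraries, on axes that start at 0. Bars are exact 95% Poisson intervals of the fragment count, which cover counting error only. The 3 graft libraries hold 2.08 to 2.86 FPKM of *Hoxa10* and 8.78 to 10.3 FPKM of *Hoxc6*, and P-SSC replicate 3 is the highest library in both panels.

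The ratio of the 2 genes within a library is not changed by a single scaling factor per library. It was 3.64, 2.34 and 3.15 in BM-MSCs and 1.89, 2.09 and 2.84 in P-SSCs, so that *Hoxa10* had the higher level per length in every steady-state library. In the grafts it was 0.236, 0.277 and 0.262, with *Hoxc6* the higher in every library. The mean ratio was 3.04 ± 0.654 in BM-MSCs, 2.27 ± 0.497 in P-SSCs and 0.259 ± 0.0206 in grafts (SD, n = 3 each). On the log2 scale the grafts were -3.12 from P-SSCs (a ratio 8.68-fold lower) and -3.54 from BM-MSCs (11.6-fold lower), without overlap. A two-sided exact permutation test gave p = 0.1 for each, the smallest that 3 against 3 libraries allow. P-SSCs and BM-MSCs overlapped, with a log2 difference of -0.42 (two-sided exact permutation p = 0.2). P-SSC replicate 3, in which both genes were high, had a ratio of 2.84, inside the range of the BM-MSCs.

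Another denominator gave another answer for the steady-state groups. The ratio of *Hoxa10* to the hindlimb gene *Pitx1* was 22.6, 13.1 and 17.8 in BM-MSCs, 6.88, 3.31 and 3.89 in P-SSCs and 0.617, 0.890 and 0.713 in grafts, so that no groups overlapped. P-SSCs were -1.96 from BM-MSCs on the log2 scale (3.90-fold lower), and grafts were -2.61 from P-SSCs and -4.57 from BM-MSCs (two-sided exact permutation p = 0.1 each, the smallest possible). With either denominator the grafts had the lowest ratio, while that of P-SSCs against BM-MSCs depended on the denominator.

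**Figure D3:**
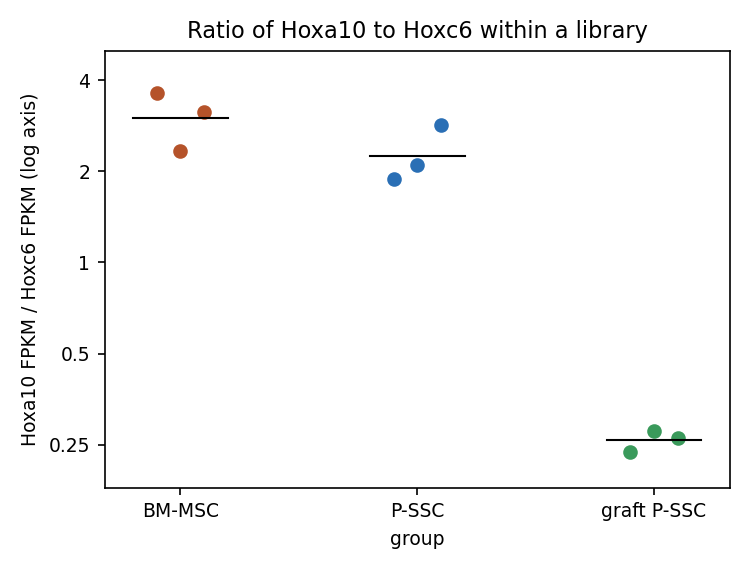
Ratio of *Hoxa10* FPKM to *Hoxc6* FPKM in each library, on a log axis. Points are libraries and black bars are geometric means of 3 libraries. The steady-state libraries lie between 1.89 and 3.64 and the grafts between 0.236 and 0.277.

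The share of *Hoxa10* in the summed FPKM of the 8 members was 69.6 to 77.7% in BM-MSCs, 64.2 to 73.9% in P-SSCs and 18 to 21% in grafts. *Hoxc6* made up 21.4 to 29.7%, 26.1 to 33.9% and 74.8 to 76.1%. The summed level was 29.2 to 38.1 FPKM in BM-MSCs, 13 to 52.4 FPKM in P-SSCs and 11.5 to 13.6 FPKM in grafts, so that the grafts overlapped in total with the lowest P-SSC library while their makeup lay apart. Over the 6 steady-state libraries the log2 levels of both genes rose and fell together (Pearson r = 0.919), and over all 9 they did not (r = 0.134). These points share libraries and groups, and the r are descriptions.

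*Hoxa3* was near the limit of detection and highest in the grafts. BM-MSCs had 0.325, 0.259 and 0.0669 FPKM (9, 8 and 2 fragments) and P-SSCs had 0.309, 0 and 0 FPKM (10, 0 and 0 fragments), where a count of 0 allows up to 0.103 FPKM in P-SSC replicate 2 and 0.0963 FPKM in P-SSC replicate 3. Grafts had 0.621, 0.401 and 0.510 FPKM (18, 14 and 15 fragments). All 3 graft libraries lay above all 6 others, and a two-sided exact permutation test against either group gave p = 0.1, the smallest possible. Of the 525 protein-coding genes that stayed below 1 FPKM throughout and were seen at all, 17.5% had all graft libraries above those of P-SSCs, and the same share above those of BM-MSCs. With no filter, limma gave 0.46 on the log2 scale against P-SSCs (adjusted p = 0.0498) and 0.31 against BM-MSCs (adjusted p = 0.147). Of the exon bases of *Hoxa3*, 27.1% are shared with 5 other annotated genes, among them the opposite-strand *Hoxaas2* and *Hoxaas3*, and the strand setting of the counting is not given in the sources used here, so fragments of these genes may be among its counts.

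The other 5 members gave only traces, and all in grafts. *Hoxb13* had 3 fragments in graft replicate 3, *Hoxc12* had 1 in graft replicate 1, *Hoxc13* had 1 in graft replicate 2 and 2 in graft replicate 3, and *Hoxd1* and *Hoxd3* had 1 each in graft replicate 3. These levels were at or below the limit used here for a count of 0 (3 fragments), which was between 0.0572 FPKM for *Hoxc13* in its deepest library and 0.172 FPKM for *Hoxc12* in its shallowest. Of the 135 protein-coding genes with 1 to 3 fragments over the 9 libraries, 101 (74.8%) likewise had them in grafts alone, although the grafts held 34.0% of all fragments. Graft replicate 3 showed 7 of the 8 members above 0, and each other library 2 to 4, although over the whole table it had 2793 genes above 0, beside 2771 and 2829 in the other grafts. For *Hoxd3*, 62.8% of the exon bases are shared with 4 other annotated genes.

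The table also lists *Hottip*, the noncoding RNA at the posterior end of the Hoxa cluster that lies next to *Hoxa13*, at 0 in all 9 libraries, together with *Gm28230*, a protein-coding gene that overlaps *Hoxd3*, and the small RNAs *Gm27898* and *Gm28011*. The processed pseudogene *Gm11539*, inside the Hoxb cluster, had 1.17, 0.668 and 1.48 FPKM in BM-MSCs, 0.636, 2.12 and 0.756 FPKM in P-SSCs and 1.83, 2.02 and 1.70 FPKM in grafts. Its graft libraries lay above those of BM-MSCs and overlapped with those of P-SSCs.

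Of 65 genes listed for limb and axial patterning, 13 were in the table, 10 were above 0 somewhere and 6 were tested, among them *Dlx6*, *Gli2*, *Pitx1*, *Twist1* and *Zbtb16*. In the fit of all 9 libraries, 0 of the 6 rose in any comparison, beside 9.8%, 22.6% and 25.7% of all genes tested that rose in P-SSCs against BM-MSCs, in grafts against P-SSCs and in grafts against BM-MSCs. In the same order, 1, 1 and 2 of the 6 fell, beside 14.4%, 11.5% and 16.2% of all genes tested. The median log2 difference of the 6 was -0.079, -0.20 and -0.15, against -0.059, 0.26 and 0.28 for all genes tested. Without P-SSC replicate 3, 2 of the 6 fell in P-SSCs against BM-MSCs, where 20.04% of all genes tested fell, and 1 rose in each graft comparison, where 33.2% rose against P-SSCs and 34.9% against BM-MSCs. The falls against BM-MSCs include *Dlx6*, which passed the filter only through the BM-MSCs, where it is high. Those in the graft comparisons include *Zbtb16*, which passed it only through the steady-state libraries, so that these counts are descriptions.

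*Zbtb16*, a zinc finger repressor known for limb and axial patterning, had the same order as *Hoxa10* between P-SSCs and grafts. It had 2.06, 1.01 and 1.69 FPKM in P-SSCs, 1.21, 1.26 and 1.63 FPKM in BM-MSCs and 0.119, 0.172 and 0.0731 FPKM in grafts. The grafts lay below every steady-state library. The log2 fold change was -1.18 ± 0.23 (SE) against P-SSCs (limma adjusted p = 0.00362) and -1.07 ± 0.23 (SE) against BM-MSCs (limma adjusted p = 0.00532). No graft library reached 1 FPKM, so that *Zbtb16* passed the filter only through the steady-state libraries, where it is high. With no filter but a value above 0, the difference from P-SSCs had a limma adjusted p of 0.00804. P-SSC replicate 3 was inside the range of its group for this gene.

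*Dlx6*, a homeobox gene of skeletal and distal limb development outside the clusters, separated marrow from periosteum. It had 3.71, 2.14 and 3.85 FPKM in BM-MSCs, 0.237, 0.738 and 0.887 FPKM in P-SSCs and 0.106, 0.176 and 0.0521 FPKM in grafts. It fell by 1.38 on the log2 scale from BM-MSCs to P-SSCs (limma adjusted p = 0.00377) and was lower in grafts than in BM-MSCs by a log2 fold change of -1.90 (limma adjusted p = 0.000412). The grafts also lay below all P-SSC libraries, with means of 0.111 against 0.621 FPKM and a log2 difference of -0.52 that was not called (limma adjusted p = 0.159). With a pseudocount of 0.1 in place of 1 this difference was -1.67 and was called (limma adjusted p = 0.0495). Since only the 3 BM-MSC libraries reached 1 FPKM, *Dlx6* passed the filter only through the group where it is high, and it was not tested once any of them was left out. With no filter but a value above 0, the same differences had limma adjusted p of 0.0109 for P-SSCs and 0.00160 for grafts against BM-MSCs.

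The hindlimb gene *Pitx1*, which specifies hindlimb against forelimb, was present in all 9 libraries. It had 1.26, 2.03 and 1.24 FPKM in BM-MSCs, 1.54, 2.66 and 9.97 FPKM in P-SSCs and 3.36, 3.21 and 3.42 FPKM in grafts. All grafts lay above all BM-MSCs, as they did for 40.5% of all genes tested, and no comparison was called (limma adjusted p = 0.208 for grafts against BM-MSCs and 0.882 for grafts against P-SSCs). Without P-SSC replicate 3, *Pitx1* rose in grafts against BM-MSCs by 0.80 on the log2 scale (limma adjusted p = 0.0285), as it did in a fit of these 2 groups alone (limma adjusted p = 0.0195). *Gli2* and *Twist1*, effectors of hedgehog signalling and of limb mesenchyme, had group means of 2.09 to 2.68 FPKM and 1.76 to 2.39 FPKM and were not called.

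**Figure D4:**
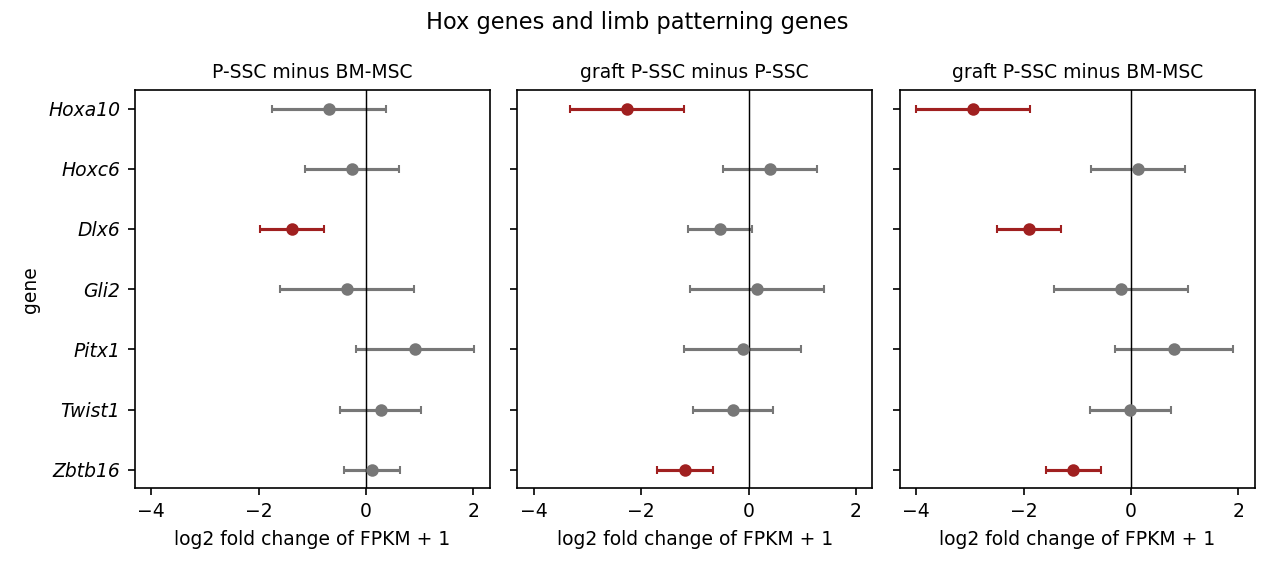
Log2 fold change of FPKM + 1 with its 95% interval (limma) for the Hox genes tested and 5 limb patterning genes, in 3 comparisons. Red marks an adjusted p under 0.05. *Hoxa10* and *Zbtb16* lie left of 0 in both graft comparisons, *Dlx6* in both comparisons with BM-MSCs, and the intervals of *Hoxc6* cross 0 in all 3.

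P-SSC replicate 3 stood apart in several of these genes at once. On the log2(FPKM + 1) scale it exceeded the mean of the other P-SSC libraries by 1.90 for *Hoxa10*, 1.32 for *Hoxc6* and 1.85 for *Pitx1*, against a median of 0.11 over all genes tested, and by 0.12 for *Zbtb16*. A deviation at least as large in either direction was found in 12.0% of genes for *Hoxa10* and 20.1% for *Hoxc6*. The Schwann cell marker *Sox10* was also highest there, at 8.43 FPKM, with 0.524 and 1.20 FPKM in the other P-SSC libraries, 0.179 to 0.432 FPKM in grafts and at most 0.0968 FPKM in BM-MSCs. It was 1 of 4 Schwann markers listed that the table holds, and its part in the Hox values was not tested.

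The sorted populations were checked against marker lists. *Trf*, the 1 of 8 marrow stroma markers in the table, had 163 ± 30.1 FPKM in BM-MSCs, 3.53 ± 1.11 in P-SSCs and 1.96 ± 0.698 in grafts (SD, n = 3 each). The 3 of 6 periosteum markers in the table (*Postn*, *Cilp* and *Ogn*) summed to 164 to 267 FPKM in BM-MSCs, 1016 to 1150 FPKM in P-SSCs and 974 to 1099 FPKM in grafts. Within these sums the 3 genes changed in opposite directions between P-SSCs and grafts. *Postn* rose from 439 to 830 FPKM by group mean (limma adjusted p = 0.00156), while *Cilp* fell from 332 to 134 FPKM (limma adjusted p = 0.000974) and *Ogn* from 302 to 73.3 FPKM (limma adjusted p = 0.000273). *Cilp* and *Ogn* thus moved with *Hoxa10* in this comparison, and their part in its change was not tested. The 5 of 16 blood markers in the table, led by *Hba-a2* and *Lyz2*, summed to 1162 to 2817 FPKM in BM-MSCs, 16.4 to 79.0 FPKM in P-SSCs and 29.4 to 86.4 FPKM in grafts, and *Ptprc*, *Cd79b* and *Mpo* were at 0 in all P-SSC libraries. *Ptprc*, which encodes CD45, had 0.326 to 1.35 FPKM in BM-MSCs. Of the 4 blood markers tested, *Hba-a2*, *Lyz2* and *Cd79b* fell in grafts against BM-MSCs, as *Hoxa10* did, beside 16.2% of all genes tested. The same 3 fell in P-SSCs against BM-MSCs, beside 14.4% of all genes tested, and *Mpo* was not called in either comparison. *Cd79b* passed the filter only through the BM-MSCs, where it is high, so that these counts are descriptions. The part of the blood markers in the *Hoxa10* values was not tested. Markers of the sort, endothelium, skeletal muscle, osteoblasts, cartilage, tendon and skin were not analysed here.

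Polycomb proteins keep silent Hox genes repressed, and Trithorax proteins keep active ones on. Of 34 Polycomb genes listed 6 were tested, and 1 of them rose in grafts against P-SSCs, beside 22.6% of all genes tested higher. That gene was *Pcgf3*, which had 5.89 ± 3.37 FPKM in P-SSCs and 15.9 ± 1.53 in grafts (SD, n = 3 each) and a log2 fold change of 1.42 (limma adjusted p = 0.0393). No Polycomb gene was called in the other comparisons. Of 20 Trithorax genes listed 4 were tested. *Hcfc1* rose in grafts against P-SSCs, from 6.42 ± 1.32 to 14.3 ± 2.48 FPKM (SD, n = 3 each), by 1.05 on the log2 scale (limma adjusted p = 0.0419), and *Psip1* rose against BM-MSCs by 2.38 (limma adjusted p = 0.0463), beside 25.7% of all genes tested. All 3 calls were near the threshold and were lost with no filter on low values (limma adjusted p 0.0761, 0.0675 and 0.102) and with median-of-ratios scaling (0.0673, 0.118 and 0.0543). Of 19 alternatives, the call was lost in 9 for *Pcgf3*, 10 for *Hcfc1* and 10 for *Psip1*. Leaving out graft replicate 1 or graft replicate 2 ended each of them, and a replicate block ended those of *Hcfc1* and *Psip1*. The most abundant genes of these lists, *Rbbp4* at 82.0 to 107 FPKM and *Ctcf* at 6.39 to 16.4 FPKM by group mean, were not called.

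The genes most like each tested Hox gene were taken by Pearson r of log2(FPKM + 1) over the 9 libraries, among the protein-coding genes tested. For *Hoxa10* they were *Fmo2* (r = 0.981), *Arvcf* (r = 0.980) and *Kazald1* (r = 0.959). *Arvcf*, for example, had 15.4 to 30.0 FPKM in BM-MSCs, 12.8 to 33.7 FPKM in P-SSCs and 3.86 to 4.59 FPKM in grafts, with P-SSC replicate 3 highest. For *Hoxc6* they included *Tmem259* (r = 0.905) and *Bambi* (r = 0.882). The libraries share groups, and P-SSC replicate 3 was the highest of the 9 for each of these genes except *Fmo2*, so these r are descriptions of likeness only.

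Beside the Hox genes, 35 genes of the table are annotated to the homeobox family, of which 18 were at 0 in all libraries and 8 were tested. *Zhx3*, a homeobox and zinc finger repressor, rose from 0.363 to 1.91 FPKM in BM-MSCs to 5.22 to 10.7 FPKM in P-SSCs (log2 fold change 2.18, limma adjusted p = 0.00195) and stood at 2.46 to 3.56 FPKM in grafts, lower than in P-SSCs (-1.10, limma adjusted p = 0.0481). *Dbx2*, known from neural patterning, had 1.24 to 2.38 FPKM in grafts and at most 0.773 FPKM in the other libraries. It passed the filter only through the grafts, and its levels are given as a description. *Zfhx4* had 1.18 to 2.44 FPKM in BM-MSCs, 0.293 to 2.02 FPKM in P-SSCs and 0.209 to 0.342 FPKM in grafts. It was lower in grafts than in BM-MSCs (-1.15, limma adjusted p = 0.0263). No graft library reached 1 FPKM, so that *Zfhx4* passed the filter only through steady-state libraries, and the difference is a description.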

How the data were processed

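RNA sequencing of 9 libraries of sorted mouse cells was analysed. Per the labels and the study's methods, the authors made the libraries from poly-A RNA and aligned reads to GRCm38. Their processing notes name STAR 2.6.1d and featureCounts 1.5.0-p3, and the strand setting is not given in the sources used here. The authors deposited FPKM values, not read counts. The authors' length was recovered as the mean transcript length in GENCODE M21. With it, 95.5% of 3607 genes gave whole fragments in every library (tolerance 0.02 fragments). The table's own gene length column (other) was not used, as the authors deposited it as the union of exons.

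The members, gene lists and tests were chosen with earlier results of these data known. On log2(FPKM + 1) values, the 1948 genes that reached 1 FPKM in 3 or more of the 9 libraries were kept, and groups were compared with limma 3.58.1 in R 4.3.3 (1 fit, eBayes with a trend, Benjamini-Hochberg adjusted p under 0.05). The procedure was tested on simulated data. Ratios and genes below the filter were compared with two-sided exact permutation tests. Named genes were all Hox members and cluster records, tested limb patterning genes, the most abundant and the called of other lists, and the 3 nearest genes by pattern. The use of *Hoxc6* and *Pitx1* as denominators, the remarks on other homeobox genes, and a voom fit and a GC correction were chosen after seeing the data. Replicates are said in the study's methods to come from distinct mice, and RNA of mice was pooled for some of them. Some results for named genes and sequences are not reported here.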

Additional observations from a re-analysis of the deposited data

How the results depend on the processing

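*Hoxa10* was lower in grafts than in either steady-state group under all 19 alternatives tried, which changed the pseudocount, filter, scaling, groups in the fit, replicate block, trend, test or GC correction or left out 1 library. Its log2 fold change ranged from -2.65 to -1.63 against P-SSCs (limma adjusted p 0.000553 to 0.0342) and from -3.37 to -2.87 against BM-MSCs (adjusted p 4.56e-06 to 0.00991). *Zbtb16*, which passed the filter only through the steady-state libraries, kept its calls in all 19. Its range was from -3.66 to -1.05 against P-SSCs and from -3.48 to -0.995 against BM-MSCs. *Dlx6* passed the filter only through the BM-MSCs, where it is high, and was not tested when 1 of these libraries was left out. In the other 16 it was called against BM-MSCs, with a range from -2.47 to -1.20 in P-SSCs and from -4.63 to -1.87 in grafts. These calls are descriptions. The lowest values of both genes came with limma voom.

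The number of Hox genes called was 0 for P-SSCs against BM-MSCs, with a range of 0 to 1 when 1 library was left out (1 without P-SSC replicate 3). For grafts against P-SSCs it was 1, with a range of 1 to 2 (2 without P-SSC replicate 3) and 2 with no filter, where *Hoxa3* was added. For grafts against BM-MSCs it was 1 throughout. All genes called ranged from 360 to 570, from 428 to 871 and from 523 to 1032 in these comparisons when 1 library was left out, beside 472, 665 and 816. They were 428 without graft replicate 1, 428 without graft replicate 2 and 441 without graft replicate 3 for grafts against P-SSCs, and 533 and 523 without graft replicates 1 and 2 for grafts against BM-MSCs. Fewer libraries were fitted in these. The log2 difference of *Hoxc6* for P-SSCs against BM-MSCs ranged from -0.71 (without P-SSC replicate 3) to 0.040 (without P-SSC replicate 2) when 1 library was left out. Its sign also turned to -0.15 for grafts against P-SSCs with quantile normalization, and for grafts against BM-MSCs to -0.096 with median-of-ratios scaling and -0.24 with quantile normalization. The cause was not tested, but these scalings moved the median of all genes for grafts against P-SSCs from 0.26 to 0.019 and -0.044. Relative to the median of all genes in the same comparison, *Hoxa10* was -2.52 from P-SSCs and -3.23 from BM-MSCs.

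Replicate numbers are not known to pair mice. Same-numbered libraries deviated together with a mean r of 0.023, -0.26 and -0.0060 in the 3 comparisons. For other-numbered libraries the mean r was -0.012, 0.12 and 0.0031. With 3 libraries a group these r cannot show whether mice were shared. A fit with the replicate block called 441, 621 and 755 genes and changed no Hox call, with a limma adjusted p of 0.0103 for *Hoxa10* in grafts against P-SSCs.

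With 3 libraries a group, exact tests cannot go below 0.1. Counts of at most 3 fragments are at the limit of this depth. Host and donor cells in the grafts were not separated, and the other Hox genes of the annotation were not analysed here.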
